A study of Mus musculus with 12 samples.

Results

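The nucleolar ribosome biogenesis genes were examined as a set of 35 named genes in bulk RNA-seq of mouse skin. The genes were listed by name, and the listing named Nifk as lower in the IMQ mice labelled Lcn2-/- than in the WT IMQ mice, so values of that contrast chose the set and are given here as a description without a test. All 35 genes were found among the 56923 Ensembl genes of the deposited count table, and all 35 passed the filter on low counts, which kept 18529 genes. The set holds 2 subunits of RNA polymerase I, 4 proteins of box C/D small nucleolar ribonucleoproteins (snoRNPs), 5 of box H/ACA snoRNPs, 9 factors of the small subunit processome, 12 factors of large subunit assembly and 3 nucleolar chaperones or regulators.

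The study asked how LCN2, a secreted lipocalin, acts in a psoriasis model made with imiquimod (IMQ), an agonist of a Toll-like receptor. Per the labels and the study's methods, the 12 mice were females of 8 to 10 weeks in 4 groups of 3, taken here as one library per mouse: WT control, WT IMQ, Lcn2-/- labelled control and Lcn2-/- labelled IMQ. The Lcn2-/- line was on a C57BL/6 background, and WT littermates served as controls. Cream with 5% IMQ, or vehicle cream in the control groups, was put on the shaved back daily for 6 days. The sample labels call the genotype a knockdown and give the control treatment as none.

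Library totals ran from 16448226 to 28592110 counts, and a floor of 3 counts corresponded to between 0.0985 and 0.202 CPM. CPM are a gene's counts scaled to a common library size, here with library sizes adjusted by trimmed mean of M values (TMM). The extraction text of the labels names retinas, whereas the summed level of 18 keratinocyte markers was at least 8413 CPM in every library and that of 12 retina markers at most 3.51 CPM, with Crx and Nrl at 0 in all 12 libraries. Lcn2 itself was counted in the libraries labelled Lcn2-/-, at 10.5, 9.22 and 15.9 CPM in the control mice and 34.3, 29.9 and 49.8 CPM in the IMQ mice. In WT mice its level was 6.29, 8.64 and 4.57 CPM in the control group and 61.2, 183 and 76.1 CPM in the IMQ group. Lcn2 counts therefore did not separate the labelled control mice downward from WT control mice, and genotype is given below as the label only. A control library stood apart in each genotype label. WT control mouse 2 had 30 CPM summed over 14 hair follicle markers, against 3335 and 1898 CPM in mice 1 and 3, and 794 CPM over 24 mitotic and S-phase genes, against 1988 and 2328 CPM, and its mean level of the members was the lowest of its group. Labelled control mouse 2 had 11100 CPM of hair follicle markers, against 228 and 4368 CPM, and 2421 CPM of mitotic and S-phase genes, against 1559 and 1611 CPM, and its mean level of the members was the highest of its group. Counts without each of these mice are given with the comparisons.

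The nucleolus is the part of the nucleus where RNA polymerase I transcribes the ribosomal RNA genes. The precursor is cut and chemically modified there by snoRNPs, whose box C/D members guide methylation and whose box H/ACA members guide pseudouridylation, and it is assembled with ribosomal proteins into the small and the large subunit. Output of this pathway is known to follow cell growth, the transcription factor MYC is known to activate many of its genes, and basal keratinocytes of the epidermis are a renewing, growing cell population.

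Promoter windows in the RefSeq tables of build GRCm38.p6 were matched for 30 of the 35 genes, in 34 windows. Fbl, Npm1, Bop1, Rrs1 and Rrp12 had no entry. Only the 250 bases before each start were searched, for the E-box CACGTG bound by MYC with its partner MAX, which reads the same on both strands, and for CTTCCG or its reverse complement CGGAAG, a core of sites of ETS factors. The second motif was picked after the sequences had been read. CACGTG was present in 1 of the 34 windows (2.94%), that of Nop2, against 6.02% of 32851 windows of all genes and 7.7% of the windows of genes tested. CTTCCG or CGGAAG was present in 12 windows (35.3%), against 13.6% of all windows and 21.3% of the windows of genes tested. Those 12 windows belonged to Ddx21, Gar1, Heatr1, Mybbp1a, Nhp2, Nifk, Nolc1, Nop2, Rrp9, Utp20, Utp4 and Wdr12. These windows are shown because Nifk is the gene named in the listing, Nop2 is the member with both motifs, and Nop56 is a member with a raised level and neither motif. They read 5′ to 3′ on the strand of the gene, the plus strand for all of them, and capitals mark the motifs.
Nifk, chr1:118321593-118321842: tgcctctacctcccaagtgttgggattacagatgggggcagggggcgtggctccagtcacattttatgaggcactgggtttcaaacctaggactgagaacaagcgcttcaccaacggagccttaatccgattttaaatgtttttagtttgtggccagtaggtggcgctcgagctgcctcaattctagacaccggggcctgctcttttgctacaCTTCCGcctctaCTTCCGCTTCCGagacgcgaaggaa
Nop2, chr6:125131633-125131882: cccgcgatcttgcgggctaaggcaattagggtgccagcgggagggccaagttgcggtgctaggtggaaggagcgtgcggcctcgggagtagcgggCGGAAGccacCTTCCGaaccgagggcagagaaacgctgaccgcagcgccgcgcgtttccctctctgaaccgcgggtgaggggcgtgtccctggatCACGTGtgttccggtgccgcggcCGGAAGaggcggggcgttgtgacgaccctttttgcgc
Nop56, chr2:130274162-130274411: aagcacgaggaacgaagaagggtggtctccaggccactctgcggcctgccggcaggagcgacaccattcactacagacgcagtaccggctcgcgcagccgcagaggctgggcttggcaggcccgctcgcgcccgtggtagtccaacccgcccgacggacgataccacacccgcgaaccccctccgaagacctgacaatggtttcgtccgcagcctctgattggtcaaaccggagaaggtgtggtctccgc
A motif match is a run of letters and was not tested for binding.

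Positions are from GENCODE M21 on GRCm38. Nifk lies at chr1:118321839-118333822 (plus strand), Gnl3 at chr14:31012433-31019152 (minus), Utp4 at chr8:106893636-106923088 (plus) and Rrp12 at chr19:41862851-41896173 (minus). Wdr43 lies at chr17:71615895-71659031 (plus), Nhp2 at chr11:51619735-51623714 (plus), Ddx21 at chr10:62580251-62602281 (minus) and Noc4l at chr5:110648418-110653417 (minus).

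Levels of the members spanned a wide range in skin without IMQ. Per kilobase of annotated exon, the mean level in WT control mice ran from 2.58 CPM for Wdr12, a partner of Pes1 and Bop1, to 202 CPM for Npm1, the histone chaperone nucleophosmin. Next below Npm1 came Nhp2, a core box H/ACA protein, at 64.6 CPM per kilobase and Ncl, nucleolin, at 64.1 CPM per kilobase, which did not differ beyond their spread. The length counts every base in any annotated exon of the gene, 1146 for Nhp2, 10188 for Ncl and 11955 for Wdr12. Before division, Nhp2 was at 74.1 CPM and Ncl at 653 CPM, so the order of the members depends on these lengths. Each member had at least 275 counts in every library, the lowest being a count of Rrp9. The SD of log2 CPM within groups ran from 0.0937 for Nop14 to 0.304 for Gar1. The members together took 0.262% to 0.415% of all counts.

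In WT mice, the first question was how IMQ changed these genes. Of the 35 members, 15 rose with IMQ and 0 fell, by the quasi-likelihood test of edgeR at 0.05 after adjustment by Benjamini and Hochberg. The background in this comparison was 14.2% of tested genes called higher and 14.3% called lower, and DESeq2 called 16 members higher and 0 lower. The 15 were Nop56, Nhp2, Heatr1, Utp4, Wdr43, Nop14, Noc4l, Rrp12, Nop2, Noc2l, Rrp1b, Gnl3, Ddx21, Nifk and Npm1. The median log2 fold change over the 35 members was 0.40, and it was -0.02 over all genes tested. By sign, 31 members were higher, against 47.9% of all genes, and Polr1a, Rrp9, Gar1 and Utp20 were lower, against 52.1%. Every WT IMQ mouse lay above every WT control mouse for 23 members, or 65.7%, against 20.1% of all genes tested, and below for Rrp9, against 20.6%. The IMQ mice of this comparison are also those of the contrast that chose the set, so these counts are not independent of that choice. At an unadjusted p under 0.05, 23 members were higher, against 19.4% of all genes, and 1 was lower, against 21.1%. With a fold above 2 added to that unadjusted threshold, Gnl3 alone was higher and 0 were lower, against 8.4% and 9.79% of all genes. In bulk skin, fewer or more cells of a type and less or more RNA per cell cannot be told apart.

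Scaling by library totals in place of TMM shifted the median log2 fold change of all genes by -0.17 and turned 2633 higher and 2654 lower calls into 1831 and 4222. Under that scaling 6 members were called higher and 1 lower. Leaving out WT IMQ mouse 1 or mouse 3 left 8 members called higher, leaving out WT control mouse 1 or mouse 2 left 9, and leaving out WT IMQ mouse 2 gave 18. The calls of Nhp2, Utp4, Wdr43, Noc4l, Rrp12, Gnl3, Ddx21 and Nifk held whichever of the 6 mice was left out. Heatr1 lost its call without WT IMQ mouse 1 or mouse 3. Nop56, Nop2, Noc2l, Rrp1b and Npm1 lost theirs without any one of WT control mice 1 and 2 and WT IMQ mice 1 and 3. The call of Nop14 was lost whichever mouse was left out.

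**Figure D1:**
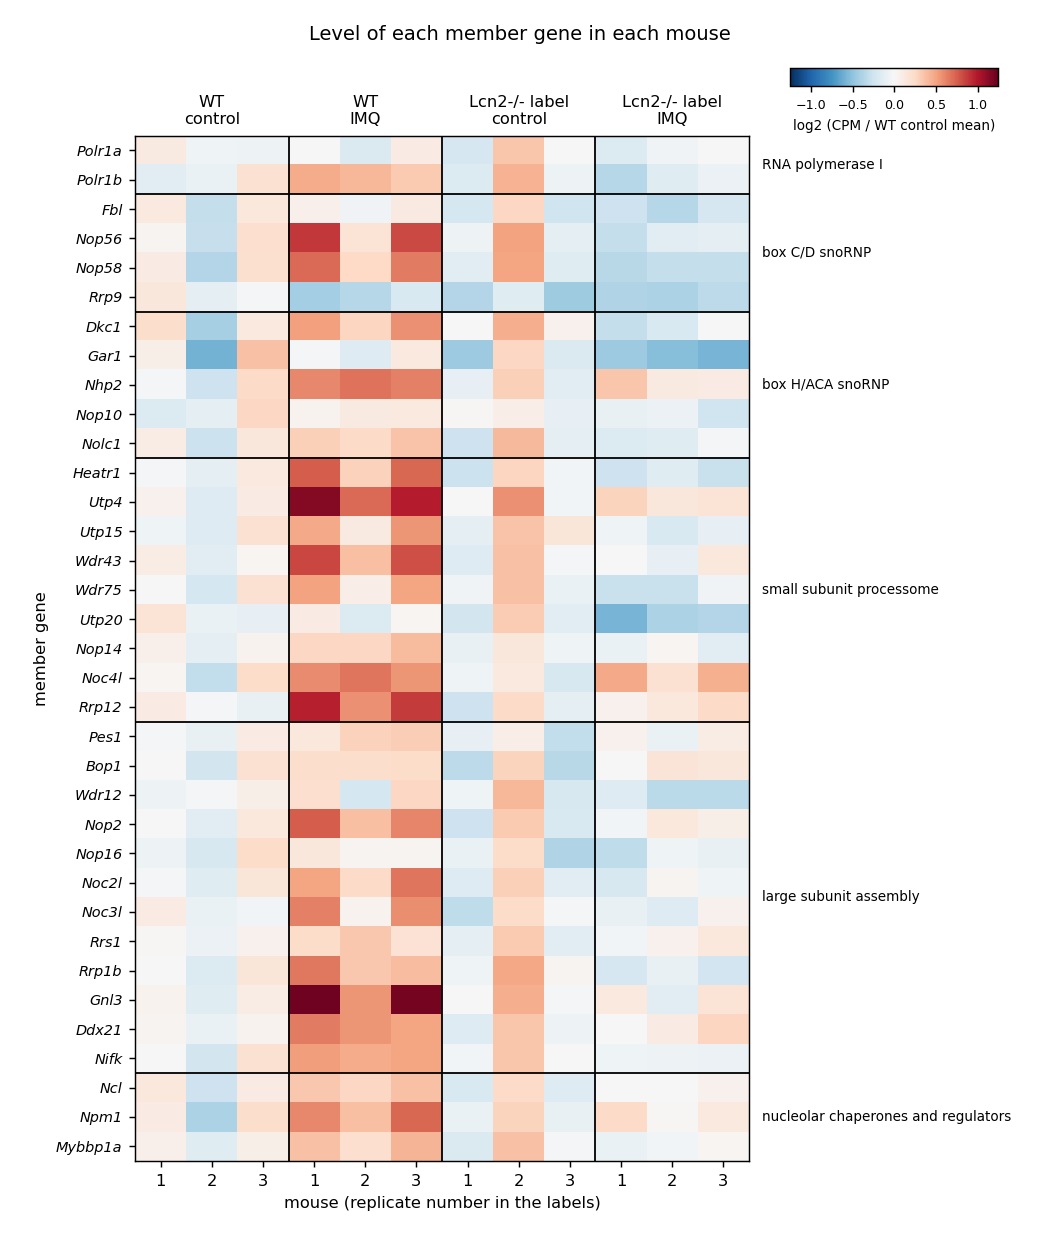
Level of each of the 35 member genes (vertical axis, grouped by role) in each of the 12 mice (horizontal axis), as the log2 ratio of its CPM to the mean of the 3 WT control mice; red is higher and blue is lower. WT IMQ mice 1, 2 and 3 were red for most members, with mouse 2 the lowest of them for 26 of 35, whereas Rrp9 was blue in all 3.

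Of the RNA polymerase I subunits, Polr1b, which with Polr1a forms the catalytic core, had 24.4, 25.3 and 30.6 CPM in WT control mice and 36.8, 35.8 and 33.6 CPM in WT IMQ mice. The groups did not overlap, but the log2 fold change of 0.40 ± 0.17 (SE) had an adjusted p of 0.0874 in edgeR. Polr1a, the largest subunit, was at 44.2 ± 3.08 CPM (SD, n = 3) in WT control and 43.5 ± 4.19 CPM in WT IMQ mice.

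Among the box C/D proteins, Nop56 rose and Fbl, Nop58 and Rrp9 did not pass the test. Nop56, a core scaffold protein, had 80.3, 64.4 and 90.7 CPM in WT control mice and 145, 88.2 and 139 CPM in WT IMQ mice. Its IMQ mouse 2 lay within the control range, and the log2 fold change was 0.66 ± 0.21 with an edgeR adjusted p of 0.0361. Nop58, its paralog in the same particle, had a log2 fold change of 0.55 ± 0.20 with an edgeR adjusted p of 0.0572. Fbl, the methyltransferase fibrillarin, was at 103 ± 16.6 CPM in control and 106 ± 5.93 CPM in IMQ mice. Rrp9, the protein of the U3 snoRNP, had 26.1, 21.7 and 23.2 CPM in WT control mice and 17.6, 18.5 and 20.7 CPM in WT IMQ mice. It was the member whose WT groups were separated downward, with a log2 fold change of -0.32 ± 0.13 and an edgeR adjusted p of 0.0881.

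Of the box H/ACA proteins, Nhp2 rose from 73.1, 61.8 and 87.3 CPM in WT control mice to 112, 118 and 115 CPM in WT IMQ mice. The IMQ mice lay close together and above every control mouse, and the log2 fold change was 0.64 ± 0.15 with an edgeR adjusted p of 0.00813. Dkc1, the pseudouridine synthase dyskerin, had a log2 fold change of 0.46 ± 0.18 with an edgeR adjusted p of 0.0731. The small core proteins Gar1 and Nop10 had log2 fold changes of -0.01 and 0.09. Nolc1, a snoRNP chaperone, had one of 0.30.

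The small subunit processome, the large particle that forms on the nascent precursor, had 6 of its 9 members called higher. The share over all genes tested was 14.2%, and the median log2 fold change of the 9 was 0.60. Of these calls, those of Utp4, Wdr43, Noc4l and Rrp12 held whichever mouse was left out, and those of Heatr1 and Nop14 did not. Utp4 had 34.5, 29.7 and 35.6 CPM in WT control mice and 73.7, 54.5 and 65.6 CPM in WT IMQ mice. All IMQ mice stood clear of the controls, with a log2 fold change of 0.96 ± 0.17 and an edgeR adjusted p of 0.0017, the smallest among the members. Rrp12, a factor of small subunit maturation and export, had 25.1, 23.3 and 22.1 CPM in control and 45.9, 34.8 and 43.0 CPM in IMQ mice. Its groups did not overlap either, at a log2 fold change of 0.81 ± 0.15 and an edgeR adjusted p of 0.00232.

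Wdr43 had 80.5, 68.7 and 76.7 CPM in WT control mice and 134, 97.7 and 131 CPM in WT IMQ mice, a log2 fold change of 0.68 ± 0.16 with an edgeR adjusted p of 0.00737. Wdr43 belongs with Utp4, Heatr1, Utp15 and Wdr75 to the subcomplex that binds the precursor first, and of these Utp15 and Wdr75 were not called. Noc4l, a partner of Nop14, had 21.8, 17.4 and 25.3 CPM in control and 32.4, 34.2 and 31.4 CPM in IMQ mice, a log2 fold change of 0.61 ± 0.15 with an edgeR adjusted p of 0.0126. In both genes every IMQ mouse was above every control mouse. Heatr1 rose by 0.60 on the log2 scale. Nop14 had a log2 fold change of 0.31 with an edgeR adjusted p of 0.0473, which ran from 0.0569 to 0.154 with each mouse left out. Utp15, Wdr75 and Utp20 had log2 fold changes of 0.39, 0.37 and -0.01 and did not pass the test.

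**Figure D2:**
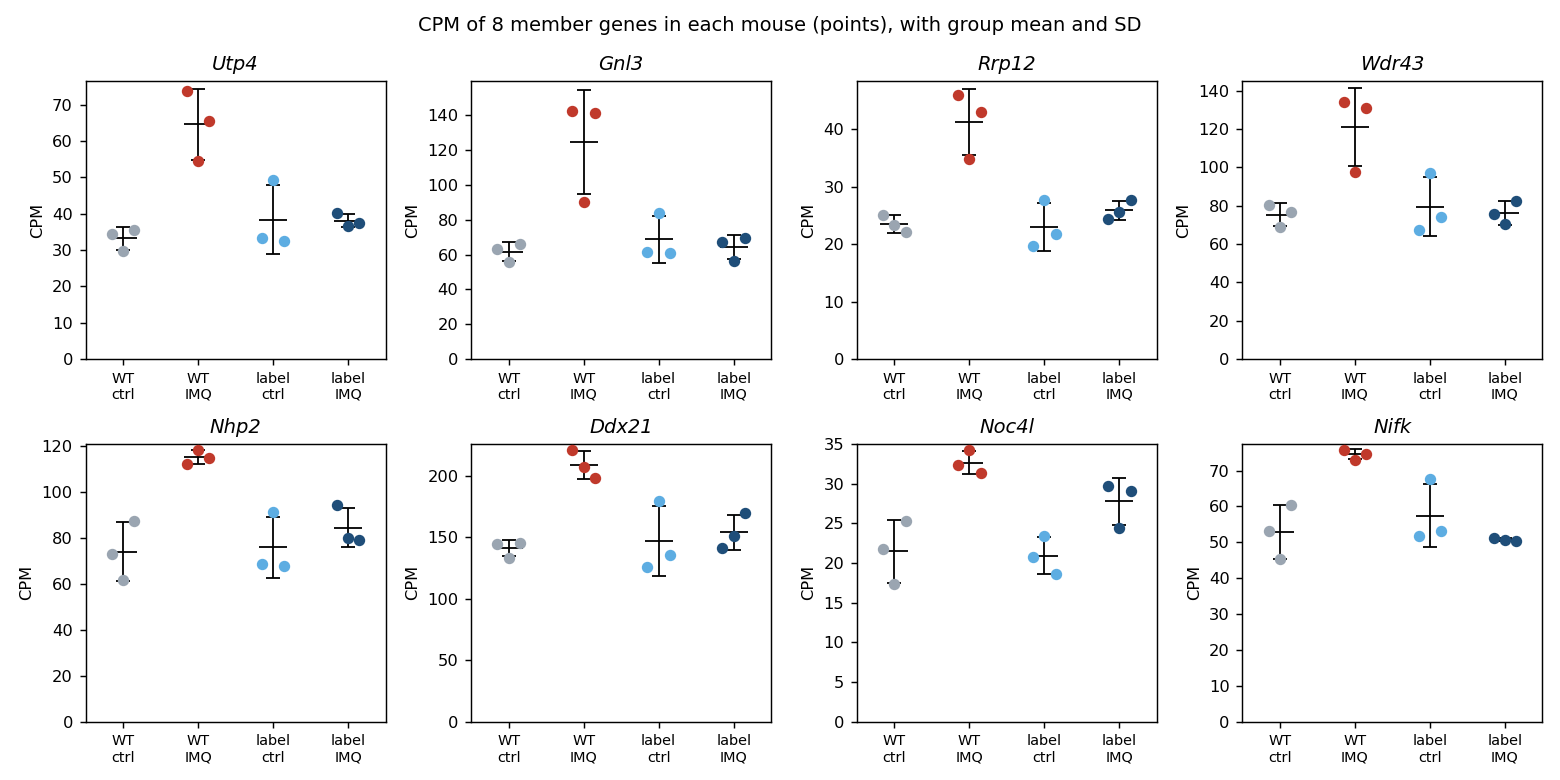
CPM (vertical axis, from 0) of the 8 members with the smallest adjusted p in the WT comparison, in each mouse (points) of the 4 groups (horizontal axis), with the group mean and SD (bars, n = 3). For each of them the 3 WT IMQ mice lie above the 3 WT control mice, and for Gnl3 WT IMQ mouse 2 lies at 90.1 CPM against 143 and 141 CPM for mice 1 and 3.

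Large subunit assembly factors had 6 of 12 members called higher, against 14.2% of all genes tested. All 12 were higher by sign, with a median log2 fold change of 0.45. The calls of Gnl3, Ddx21 and Nifk held whichever mouse was left out, and those of Nop2, Noc2l and Rrp1b did not. Gnl3, the GTP-binding protein nucleostemin, had 63.4, 55.6 and 65.9 CPM in WT control mice and 143, 90.1 and 141 CPM in WT IMQ mice. Its log2 fold change of 1.02 ± 0.19, with an edgeR adjusted p of 0.00209, was the largest of the set, and the groups did not overlap. Annotated exons cover 90.8% of the span of Gnl3, so its counts may hold reads of unspliced RNA, which was not tested. Ddx21, an RNA helicase of the nucleolus, had 144, 133 and 145 CPM in control and 221, 207 and 198 CPM in IMQ mice. These groups were also separate, at a log2 fold change of 0.57 ± 0.14 and an edgeR adjusted p of 0.00899.

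Nifk, a nucleolar RNA-binding protein that interacts with the product of Mki67, had 53.2, 45.3 and 60.4 CPM in WT control mice and 75.9, 73.1 and 74.7 CPM in WT IMQ mice. All 3 IMQ mice were within a narrow range above the controls, and the log2 fold change was 0.49 ± 0.13 with an edgeR adjusted p of 0.0132. Mki67, a proliferation marker, did not pass the test, at 259 ± 146 CPM in WT control and 248 ± 40.9 CPM in WT IMQ mice. Nop2, an RNA methyltransferase, and Noc2l and Rrp1b, factors of large subunit assembly, rose by 0.59, 0.48 and 0.47 on the log2 scale, each with a call that held in 2 of the 6 fits that leave out a mouse. Noc3l, Pes1, Rrs1, Bop1, Wdr12 and Nop16 did not pass the test, with log2 fold changes from 0.07 for Nop16 to 0.44 for Noc3l. Pes1, Bop1 and Wdr12, which form a single complex, had values of 0.25, 0.22 and 0.10.

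Npm1 was the only one of the 3 chaperones or regulators that passed the test, at 577, 409 and 628 CPM in WT control and 812, 697 and 885 CPM in WT IMQ mice. Its log2 fold change was 0.57 ± 0.18 with an edgeR adjusted p of 0.0308. Ncl and Mybbp1a, a MYB-binding nucleolar protein, had log2 fold changes of 0.32 and 0.34, with edgeR adjusted p-values of 0.12 and 0.0864. Reads of Npm1, Fbl and other members with processed pseudogenes could have been divided among near-identical copies.

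The 3 WT IMQ mice were not alike. Mouse 2 was the lowest of them for 26 of the 35 members (74.3%), against 38.2% of all genes tested. Relative to mice 1 and 3, its log2 level was lower by a median difference of -0.20 over the members and 0.01 over all genes. The difference was -0.68 for Nop56, -0.65 for Gnl3 and -0.55 for Noc3l, while Nifk, Ddx21 and Nhp2 had differences of -0.04, -0.01 and 0.06. Malat1 and Neat1, long noncoding RNAs that stay in the nucleus, moved with this split. Malat1 had 1673, 517 and 1747 CPM and Neat1 had 2267, 673 and 2787 CPM in WT IMQ mice 1, 2 and 3, against at most 806 CPM for either in any other library. With mouse 2 as the only WT IMQ mouse, assumed to vary like the other groups, 0 members were called, the median log2 fold change of the members was 0.25, and Utp4, Nhp2 and Nifk had values of 0.71, 0.67 and 0.46. The part of these RNAs in the members' values was not tested. Annotated exons covered 90.8% of the span of Gnl3 and 83.9% of that of Nop56, against a median of 26.4% over the members. For Noc3l the share was 12.8%, and for Rrs1, where mouse 2 differed by 0.13, it was 100%. Where exons cover most of a gene, its counts may hold reads of unspliced RNA, which was not tested.

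In mice labelled Lcn2-/-, the same comparison of IMQ with control gave 0 members called by edgeR after adjustment. The background was 14.1% of tested genes called higher and 11.2% called lower. At an unadjusted p under 0.05, Noc4l was higher and Utp20 and Rrp1b were lower, against 19.7% and 18.8% of all genes, and DESeq2 called 0 members higher and 1 lower after adjustment. The median log2 fold change of the members was -0.10, against -0.05 over all genes, and it was 0.07 without labelled control mouse 2, where 1 member was called higher. By sign 10 members were higher and 25 lower, against 46.6% and 53.4% of all genes, and scaling by library totals, which shifted the median of all genes by -0.20, left 2 higher and brought the lower calls to 8. That scaling turned 2611 higher and 2080 lower calls over all genes into 1848 and 4326.

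Groups labelled Lcn2-/- were separated upward for Noc4l only, against 23.1% of all genes, and downward for Nop56, Nop58, Dkc1, Utp20, Rrp1b and Nifk, against 22.8%. Noc4l had 20.8, 23.4 and 18.7 CPM in control and 29.7, 24.4 and 29.1 CPM in IMQ mice, a log2 fold change of 0.41 ± 0.15 with an edgeR adjusted p of 0.0717. Utp20, a large scaffold of the processome, had 37.8, 55.2 and 40.6 CPM in control and 29.7, 33.8 and 34.5 CPM in IMQ mice. Its log2 fold change of -0.45 ± 0.15 had an edgeR adjusted p of 0.0503, the smallest of the set. Nifk had 51.9, 67.5 and 53.1 CPM in control and 51.2, 50.7 and 50.4 CPM in IMQ mice, which is -0.18 ± 0.13 on the log2 scale with an edgeR adjusted p of 0.325. For Nop58, Dkc1, Rrp1b and Nifk the WT groups were separated upward and the labelled groups downward, against 0.729% of all genes. The labelled control mouse 2 carried the highest value of its group for every member of the set, the genes named here included. Gnl3 and Utp4 had log2 fold changes of -0.10 and -0.01 in these mice.

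**Figure D3:**
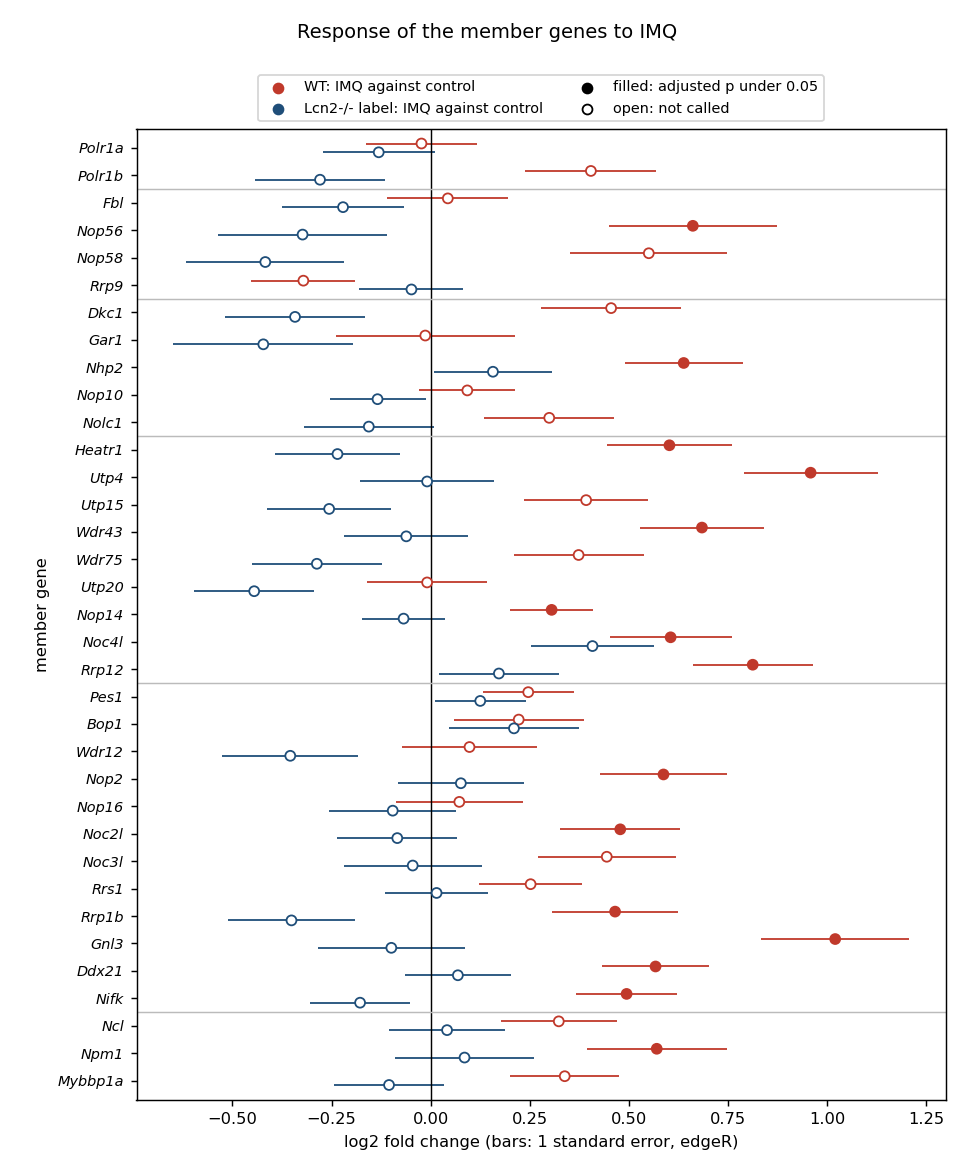
Log2 fold change of IMQ against control (horizontal axis, bars 1 SE from edgeR) of each member (vertical axis), in WT mice (red) and in mice labelled Lcn2-/- (blue); filled points have an adjusted p under 0.05. All 15 filled points are red and positive, and the difference between the responses was not tested.

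Without IMQ, the question was whether the genotype labels differed. Between Lcn2-/- labelled control and WT control mice, edgeR called 0 members, against 0.0054% of all genes in each direction, and DESeq2 also called 0. The median log2 difference was 0.04, but -0.02 without WT control mouse 2 and -0.12 without labelled control mouse 2, and 23 members were higher and 12 lower by sign, against 50.1% and 49.8% of all genes. Rrp9 was the only member with an unadjusted p under 0.05 and the only one with separate groups, against 5.18% of all genes separated downward and 4.19% upward, and 2.65% of all genes were higher and 3.95% lower at that unadjusted p. It had 18.3, 21.3 and 17.4 CPM in the labelled controls, all below the WT controls given above, with a log2 difference of -0.32 ± 0.13 and an edgeR adjusted p of 0.73.

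Between the IMQ groups, the contrast that chose the set, all 35 members were lower in mice labelled Lcn2-/- than in WT mice, where 51.2% of all genes tested were lower. The groups were separate for 31 members, against 17.3% of all genes, and they overlapped for Polr1a, Rrp9, Wdr12 and Noc3l. The median log2 difference was -0.45, from -0.96 for Gnl3 to -0.04 for Rrp9, and it was -0.02 over all genes. By role the median was -0.58 for box C/D proteins, -0.57 for the processome, -0.47 for large subunit assembly, -0.45 for box H/ACA proteins, -0.37 for chaperones and regulators and -0.32 for RNA polymerase I. Nifk, from the values above, was at 74.5 ± 1.40 CPM in WT IMQ and 50.8 ± 0.37 CPM in labelled IMQ mice. These values are a description and nothing was read from them.

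Other genes of the pathway were counted from a list of 121 ribosome biogenesis factors outside the set. In WT mice 33 of them rose with IMQ and 1 fell, against 14.2% and 14.3% of all genes tested, with a median log2 fold change of 0.23. Eif6, an antiassociation factor of the large subunit, rose by 1.41 ± 0.13 on the log2 scale. Taf1d, a subunit of the RNA polymerase I selectivity factor, rose by 1.14 ± 0.19 and Nle1 by 0.75 ± 0.20, and Tsr2 fell by 0.37. The mean log2 level of the 121, relative to WT control, was 0.26, 0.16 and 0.26 in WT IMQ mice 1, 2 and 3. Mouse 2 was also the lowest of them for Taf1d, at 121, 73.5 and 121 CPM, and for Nle1, at 21.6, 15.8 and 25.4 CPM. In mice labelled Lcn2-/-, 4 rose and 8 fell, against 14.1% and 11.2% of all genes tested, with a median of -0.11. The rises were led by Nop53 (0.60), Eif6 (0.56) and Wdr3 (0.46), and Taf1a fell by 0.92, the giant AAA ATPase Mdn1 by 0.84 and Taf1b by 0.59 on the log2 scale. Of 79 cytosolic ribosomal protein genes, 7 rose in WT mice, against 14.2% of all genes tested, and 11 in labelled mice, against 14.1%. Of these 79, 0 fell in either, with none lower at an unadjusted p under 0.05 and 0 lower by DESeq2. Their median log2 fold change was 0.24 in both, with Rpl41 and Rplp1 among the largest rises in each.

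**Figure D4:**
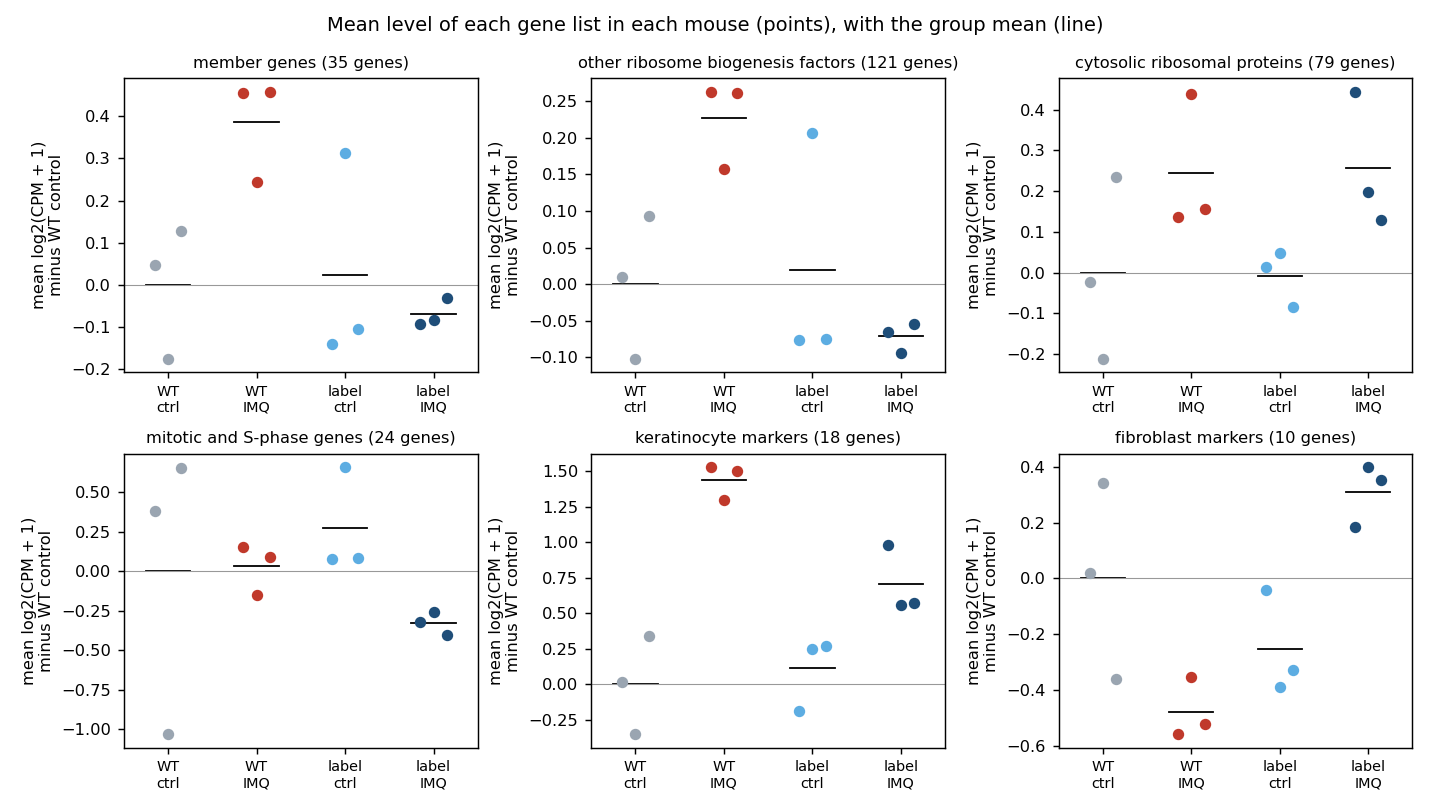
Mean of log2(CPM + 1) over the genes of 6 lists, relative to the WT control mean (vertical axis), in each mouse (points) of the 4 groups (horizontal axis), with the group mean (line); the vertical scales differ between panels. The members lie at 0.24 to 0.46 in WT IMQ and at -0.09 to -0.03 in labelled IMQ mice, and the keratinocyte markers at 1.30 to 1.53 and 0.56 to 0.98.

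Regulators and the supply of precursors moved in part. Over all genes tested, 14.2% rose and 14.3% fell with IMQ in WT mice, and 14.1% rose and 11.2% fell in labelled mice. Myc had 56.2, 63.5 and 63.6 CPM in WT control and 92.2, 111 and 100.4 CPM in WT IMQ mice, a log2 fold change of 0.73 ± 0.12 with an edgeR adjusted p of 0.000982. In labelled mice Myc had 50.2, 60.9 and 62.0 CPM in control and 75.7, 64.3 and 73.5 CPM in IMQ mice, with a log2 fold change of 0.30 ± 0.12 and an edgeR adjusted p of 0.0796. Of the 11 genes of the MYC network, 4 rose and 3 fell in WT mice and 4 rose and 2 fell in labelled mice. Of the MYC paralogs, Mycn had the largest change of the list: it fell by 4.23 in WT mice and fell by 3.88 in labelled mice, and Mycl fell by 1.77 and fell by 1.64 on the log2 scale. Mxd1, which competes with MYC for MAX, rose by 1.83 and 1.28. Of 18 genes of nucleotide and polyamine synthesis, 4 rose and 6 fell in WT mice, and 1 rose and 4 fell in labelled mice. Impdh1 rose by 0.68 in both and Sms fell by 1.18 and 1.13. Of 24 mitotic and S-phase genes, 0 were called in WT mice, with none at an unadjusted p under 0.05 and 0 by DESeq2. The sums of these genes in WT control mice ran from 794 to 2328 CPM, a wide spread for that comparison. In labelled mice Pcna alone fell by edgeR after adjustment, by 0.67. There 6 genes were lower at an unadjusted edgeR p under 0.05, against 18.8% of all genes, and 2 were lower by DESeq2. All 24 were lower by sign, with a median of -0.60, and 20 had groups separated downward, against 22.8% of all genes.

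Markers of cell types moved with the groups, and their part in the members' values was not tested. Beside the marker counts here and below, 14.2% of all genes tested rose and 14.3% fell in WT mice. For labelled mice the shares were 14.1% and 11.2%. Keratinocyte markers summed to 8413 to 13570 CPM in WT control, 39950 to 52330 CPM in WT IMQ, 9073 to 12250 CPM in labelled control and 23840 to 35850 CPM in labelled IMQ mice. Of the 18, 15 rose and 1 fell in WT mice and 10 rose and 2 fell in labelled mice, with Krt14 up by 3.30 and 2.50 on the log2 scale. Of 4 stress keratins 3 rose in each, with Krt16 up by 7.92 and 5.87. Of 10 fibroblast markers, 5 fell in WT mice, Dpt by 1.28, and 5 rose in labelled mice, Col3a1 by 1.52, and their sums were 10560 to 11260 CPM in WT IMQ and 20600 to 21450 CPM in labelled IMQ mice.

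Leukocyte markers, 14 of 15 tested, rose for 6 and fell for 3 in WT mice and rose for 9 and fell for 1 in labelled mice. S100a8 was up by 9.25 and 8.03 on the log2 scale. The median of the list was 0.15 in WT mice, with a lowest value of -2.45, and 1.94 in labelled mice, with a lowest value of -2.53. Hair follicle markers fell by edgeR for 5 of 14 in WT mice and for all 14 in labelled mice. In WT mice all 14 were lower by sign too, against 52.1% of all genes, and DESeq2 called 10 lower. Their summed level was 30 to 3335 CPM in WT control and 22.0 to 104 CPM in WT IMQ mice. In labelled mice it was 228 to 11100 CPM in control and 16.3 to 26.9 CPM in IMQ mice. Skeletal muscle markers fell for 8 and rose for 1 of 12 in WT mice and fell for 6 and rose for 1 in labelled mice. Of 9 adipocyte markers Lep fell in both. None of these lists, nor those of the pathway, had a gene called between the control groups by edgeR or DESeq2, and at an unadjusted p under 0.05 each list had at most 4 genes higher and at most 2 lower. Of 3 retina markers tested, Rp1 fell in labelled mice.

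Small nucleolar RNAs lie in introns of several members, on the same strand. Those with counts had few: Snord53 and Gm22858 inside Wdr43 had 85 and 47 counts over the 12 libraries, and Gm26287, Snord70 and Snord11 inside Nop58 had 28, 23 and 11. Snord82 inside Ncl had 14, Gm25520 inside Dkc1 had 3 and Snord110 inside Nop56 had 1. Snord53 had 18, 8 and 22 counts in WT IMQ mice and at most 11 in any other library, too few to compare the groups. Other genes share exon bases with members on the opposite strand, the most being 598 bases of Samd11 with Noc2l, and Samd11 had 55 counts in all. Where the counting did not use strand, reads of such pairs cannot be told apart.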

How the data were processed

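Total RNA of skin from 12 mice was sequenced by the authors as paired reads of 150 bp. The deposited table holds whole-number counts, reads per Ensembl gene and library, not normalized. The submitters' processing notes name HISAT and build mm8; the counter, annotation and strand setting are not given in the sources used here. Gene names, positions and exon lengths came from GENCODE M21 (GRCm38), which matched 91.5% of the gene identifiers; the unmatched held 0.567% of counts. Promoter sequences are from RefSeq (GRCm38.p6).

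Counts were analysed in R 4.3.3 with edgeR 4.0.16: filterByExpr (minimum count 10, minimum total 15), TMM, robust quasi-likelihood fit of 4 group means over 12 mice, and Benjamini-Hochberg adjustment over 18529 genes, with a call at an adjusted p under 0.05. The SE is the log2 fold change divided by the square root of F. DESeq2 1.42.0 was an alternative, beside RLE factors, other filters, a replicate block, the compared mice alone, each mouse left out, and a fold above 2 with an unadjusted p under 0.05; library totals, a GC correction and a single WT IMQ mouse were added after seeing the data. The fits were tested on counts simulated from the libraries' mean levels and spread. In the simulated WT IMQ mice, 100 genes were changed 2-fold and 100 genes 4-fold. Against WT control, edgeR recovered 41 and 73 of them, with 6 false calls among 120. DESeq2 recovered 51 and 82, with 50 false calls among 183. The changed genes were drawn from all 18529 whatever their level. They were a far smaller share than the 14.2% called higher and 14.3% called lower in the real WT comparison. These rates therefore do not give the power or the error for the members. Changes under 2-fold were not simulated, so the absence of a call does not show the absence of such a change. The list means add a pseudocount of 1 to CPM. Figures used matplotlib 3.10.9 in Python 3.11.15.

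The members and all lists were chosen with earlier results of these data known. Values per mouse are given for the 8 members with the smallest adjusted p in each tested contrast, for Nifk and, chosen after their values were seen, for a few others; of each list, counts and at most the 3 largest rises and falls are given, with Lcn2, Mki67, Myc, and small nucleolar RNAs and overlapping genes with counts. Nothing in the labels says that the libraries of a group came from separate animals, so p-values measure the spread between these samples, which may be technical. Library totals set the precision, and floors cover counting error only. No pair of libraries of a group agreed within sampling noise: their chi-square per gene was at least 11.8.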

Additional observations from a re-analysis of the deposited data

Results flagged for a closer look

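For 4 members every WT IMQ mouse lay above every WT control mouse, while every IMQ mouse labelled Lcn2-/- lay below every control mouse with that label. Over all 18529 genes tested, 135 (0.729%) had this pattern, and the members were chosen with a contrast that shares these IMQ mice, so the counts are given as a description. The log2 fold changes of IMQ against control in WT and in labelled mice were 0.55 and -0.42 for Nop58, 0.46 and -0.34 for Dkc1, 0.47 and -0.35 for Rrp1b, and 0.49 and -0.18 for Nifk. The difference between the responses was not tested, because it contains the contrast from which the genes were chosen. Of these, Rrp1b and Nifk passed the edgeR test in WT mice, and neither passed it in labelled mice.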

How the results depend on the processing

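The count of 15 members called higher in WT mice was 15 with RLE factors, at least 10 counts in every library or the GC correction, 16 with DESeq2, 11 without a filter, 10 on the 6 compared mice, 6 with library totals, 1 with a fold above 2 and an unadjusted p under 0.05, and 0 with mouse 2 as the only WT IMQ mouse, where 994 genes were called higher and 405 lower over all genes. With each mouse left out it ran from 8 to 18. The count called lower in WT mice was 1 with library totals and 0 otherwise. In labelled mice, calls higher ran from 0 to 1 with each mouse left out (1 without control mouse 2), and calls lower were 1 with DESeq2, 1 with at least 10 counts in every library, 8 with library totals, and 0 to 1 with each mouse left out (1 without control mouse 1). Between the control groups 0 members were called under every alternative run. The median log2 fold change of the members in WT mice, 0.40, was 0.23 with library totals and ran from 0.32 to 0.50 with each mouse left out. In labelled mice, -0.10, it was -0.30 with library totals and ran from -0.17 to 0.07, and between the control groups, 0.04, from -0.12 to 0.11. The median between the IMQ groups, -0.45, ran from -0.52 to -0.43, and that of the difference between the responses, -0.49, from -0.58 to -0.33. The causes were not tested. Each member had at least 275 counts in every library, whereas 3 libraries a group limit the precision of every fold change. With the replicate number of the labels as a block, 10 members were called higher in WT mice, all among the 15, and 0 were called elsewhere. The block and the fit on the 6 compared mice each lost Nop56, Nop14, Noc2l, Rrp1b and Npm1, the fit without a filter lost Nop56, Nop14, Noc2l and Rrp1b, and library totals lost Nop56, Nop14, Noc2l, Rrp1b, Npm1, Heatr1, Noc4l, Nop2 and Nifk. Mice with the same number had deviations correlated from -0.61 to 0.26, over 0.1 in 3 of 18 pairs, so the pairing is by number only.

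Of 1505 log2 values of members under the alternatives, 133 changed sign, 0 of them of a member called in either fit. Log2 values of changed sign in the WT comparison were, with the GC correction Polr1a 0.031, Gar1 0.0177, Utp20 2.99e-05, and with library totals Fbl -0.13, Nop10 -0.0768, Wdr12 -0.0661, Nop16 -0.0982, and with mouse 2 as the only WT IMQ mouse Fbl -0.0485, Wdr12 -0.22, and with RLE factors Gar1 0.000849, Utp20 0.00736, and with DESeq2 Utp20 0.00425. Log2 values of changed sign in the labelled comparison were, with library totals Nhp2 -0.0445, Rrp12 -0.0297, Pes1 -0.0755, Nop2 -0.12, Rrs1 -0.19, Ddx21 -0.13, Ncl -0.16, Npm1 -0.12, and with the GC correction Utp4 0.0594, Wdr43 0.032, Nop2 -0.00878, Noc3l 0.0515, Rrs1 -0.0536, and without a filter Rrs1 -0.0097. Log2 values of changed sign between the control groups were, with RLE factors Nop10 0.0133, and with DESeq2 Nop10 0.013, and without a filter Nop10 0.00513, and with at least 10 counts in every library Nop10 0.00566, and with the replicate block Nop10 0.00188, Utp20 -0.00276, and with the 6 compared mice only Nop10 0.00925, and with library totals Nop10 0.0415, Noc4l 0.00477, Rrp12 0.015, Nop2 0.0283, Noc3l 0.0269, Ncl 0.0176, and with the GC correction Heatr1 -0.00448, Utp20 -0.00817, Noc4l 0.023, Rrp12 0.0336, Nop2 0.0421. With each mouse left out, ranges that changed sign in the WT comparison were Polr1a -0.0885 to 0.0435, Fbl -0.0863 to 0.11, Gar1 -0.24 to 0.20, Utp20 -0.0692 to 0.0781, Nop16 -0.02 to 0.20. With each mouse left out, ranges that changed sign in the labelled comparison were Polr1a -0.25 to 0.0332, Rrp9 -0.11 to 0.0383, Nolc1 -0.28 to 0.0697, Utp4 -0.12 to 0.21, Wdr43 -0.17 to 0.10, Nop14 -0.12 to 0.00456, Nop2 -0.032 to 0.28, Nop16 -0.23 to 0.067, Noc2l -0.17 to 0.0768, Noc3l -0.18 to 0.0942, Rrs1 -0.0678 to 0.18, Gnl3 -0.18 to 0.0706, Ddx21 -0.0312 to 0.24, Ncl -0.0354 to 0.19, Mybbp1a -0.22 to 0.0665. With each mouse left out, ranges that changed sign between the control groups were Polr1a -0.10 to 0.18, Polr1b -0.12 to 0.20, Fbl -0.23 to 0.0396, Nop56 -0.0881 to 0.25, Nop58 -0.14 to 0.22, Gar1 -0.31 to 0.12, Nhp2 -0.12 to 0.17, Nop10 -0.0803 to 0.14, Nolc1 -0.19 to 0.17, Heatr1 -0.15 to 0.13, Utp4 -0.0155 to 0.31, Wdr43 -0.0878 to 0.18, Wdr75 -0.0648 to 0.20, Utp20 -0.18 to 0.11, Nop14 -0.0695 to 0.0488, Noc4l -0.15 to 0.0963, Rrp12 -0.18 to 0.0729, Bop1 -0.34 to 0.00628, Wdr12 -0.12 to 0.20, Nop2 -0.22 to 0.0923, Nop16 -0.22 to 0.0847, Noc2l -0.15 to 0.0973, Noc3l -0.16 to 0.11, Rrs1 -0.13 to 0.12, Rrp1b -0.00929 to 0.28, Gnl3 -0.0124 to 0.24, Ddx21 -0.11 to 0.16, Nifk -0.0133 to 0.22, Ncl -0.17 to 0.0514, Npm1 -0.0963 to 0.17, Mybbp1a -0.10 to 0.18.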
